A study of Caenorhabditis elegans with 24 samples.

Results

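The clec genes of Caenorhabditis elegans, which encode proteins with C-type lectin-like domains, were described across 24 RNA-seq libraries of whole worms. Every gene of the deposited table whose symbol begins with clec- was taken, 147 of 16927 genes, and the 111 with a mean of at least 1 CPM (a gene's reads scaled to a common library total) in at least 1 of the 8 groups were kept as members and tested among 14561 genes. The other 36 stayed below that level. Just outside it were clec-104 at 0.999 CPM and clec-137 at 0.973 CPM in their highest group, and just inside it clec-44 at 1.01 CPM and clec-207 at 1.07 CPM. Of the 111, 5 are annotated as pseudogenes: clec-44, clec-152, clec-154, clec-155 and clec-236.

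C-type lectins are built on a protein fold that in many animal members binds carbohydrate, often with calcium. In C. elegans the family is large, most of its proteins carry a signal for secretion, and many of its genes are active in the intestine, the tissue that meets the bacteria the worm eats. Some, such as clec-4, clec-60, clec-67 and clec-85, are widely used as readouts of the response to bacterial pathogens. The GATA factor ELT-2 maintains intestinal gene expression, and the mitochondrial stress factor ATFS-1 is known to induce innate immune genes along with chaperones.

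The worms belonged to 2 strains, N2, given as wild type, and VC3201, given as a mutant of atfs-1. Each strain received control RNAi bacteria, cco-1 RNAi mixed 50% with control bacteria, elt-2 RNAi mixed 50% with control bacteria, or cco-1 and elt-2 RNAi at 50% each, with 3 replicates per group. The authors' key sheet gives 25% for elt-2 RNAi instead. The product of cco-1 is part of complex IV of the respiratory chain. Feeding began at the first larval stage, and the worms were collected after 2.5 days at 20 °C as L4 larvae or young adults. Nothing in the labels tells separate cultures from repeats of 1 culture, so the p-values measure the spread between these samples, which may be technical.

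The values were CPM that the authors had quantile-normalized, so every library summed to 1000373 CPM and library totals were not given. Reads ranked back from tied low values put 1 CPM at 8 to 38 reads per library, lowest in VC3201 on control, and a value of 0.022 CPM at 0 reads. The cco-1 transcript was lower in each library with cco-1 RNAi than in any library without it. It was not equally low in these groups. Its means were 127.6 CPM with cco-1 RNAi and 72.9 CPM with both in N2, and 124.8 and 67.4 CPM in VC3201. The elt-2 transcript was at 15.96 to 19.2 CPM in N2 on control and at 9.85 to 11.6 CPM with elt-2 RNAi. In VC3201 it was at 16.5 to 17.7 CPM on control and at 6.52, 8.84 and 15.98 CPM with elt-2 RNAi, so the third of these libraries lay just below the controls. Without that library the calls for elt-2 RNAi in VC3201 were 39 clec genes raised and 61 lowered, as with it. With both RNAi the elt-2 transcript was at a mean of 8.35 CPM in N2 and at 9.62, 5.14 and 12.4 CPM in VC3201. The atfs-1 transcript was at 70.98 to 77.9 CPM in N2 and at 20.3 to 22.8 CPM in VC3201, both on control. Differences were tested with limma on log2(CPM + 1), which understates the change of low genes, and called at a Benjamini-Hochberg adjusted p under 0.05 over all 14561 genes. Because the samples were whole worms, fewer cells of a type and less RNA per cell cannot be told apart. A difference in stage between groups was not tested. With worms collected as L4 larvae or young adults, it cannot be told apart from the response to RNAi or strain.

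Most clec RNA came from a few genes. In N2 on control the members summed to 4589 ± 37.3 CPM (SD, n = 3), and the group means of this sum ran from 4023 CPM in VC3201 with both RNAi to 5454 CPM in N2 with both RNAi. The 10 most abundant members held 84.4% of the summed CPM. Per kilobase of annotated exon, clec-63 and clec-87 stood above the rest in each group, and their order varied. clec-87 was the higher on control, at 1088 against 1024 CPM per kb in N2 and 1278 against 746.2 in VC3201. With elt-2 RNAi it was again the higher in N2, at 1455 against 1311 CPM per kb, whereas in VC3201 clec-63 was at 1989 and clec-87 at 723.2 CPM per kb. Other abundant members were lower, clec-1, clec-88 and clec-91 in N2 on control at 283.4, 267.8 and 201.1 CPM per kb. The median member was far lower, at 3.55 CPM in N2 on control and at 1.13 CPM in VC3201 with elt-2 RNAi.

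In N2, cco-1 RNAi, the condition used to provoke mitochondrial stress, raised 28 members and lowered 36, so 57.7% were called against 33.8% of all genes tested, of which 17.5% were raised and 16.4% lowered. The median of the absolute log2 fold change was 0.38 over members and 0.15 over all genes. A change of at least 2-fold on the log2(CPM + 1) scale was called for 10 raised and 15 lowered members, against 1.08% and 1.3% of all genes. The raised genes included the infection-inducible clec-4 and clec-67, and the lowered ones included clec-48, clec-49, clec-50 and clec-52. The yolk protein genes fell alongside, 4 of 6 called lower and their summed level going from 73580 to 73850 CPM on control to 45780 to 46540 CPM, and 11 of 13 tested sperm markers were raised, from 111.5 to 129.6 CPM summed to 193.7 to 214.4 CPM. Of 15 tested intestine markers 7 were raised and 5 lowered, and their sum went from 6280 to 6324 CPM to 10900 to 11010 CPM. The part of these markers in the clec results was not tested.

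clec-17 (I:12430028-12431500, WBcel235, WBGene00008477) had the largest log2 fold change of the family under cco-1 RNAi in N2. It reached the filter of 1 CPM only through that group, so this rank rests on the group that admitted it. Its control libraries held 1.08, 0.336 and 1.08 CPM and its cco-1 RNAi libraries 28.4, 24.7 and 24.8 CPM, the control values resting on 5 to 15 reads each. The groups lay far apart (log2 fold change 3.91 ± 0.16, adjusted p = 1.55e-17). With both RNAi the same gene stood at 1.26, 0.336 and 1.11 CPM, overlapping the range of the control. elt-2 RNAi alone left 0.151, 0.261 and 0.136 CPM.

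clec-4 (II:12578331-12581113, WBGene00012583) was at 8.09, 5.01 and 6.001 CPM on control and at 57.1, 62.8 and 62.2 CPM after cco-1 RNAi in N2, a 9.53-fold higher mean (log2 fold change 3.09 ± 0.098, adjusted p = 4.03e-20). Unlike clec-17 it did not fall when elt-2 RNAi was added, and the libraries with both RNAi were the highest of the series at 190, 172 and 182 CPM. elt-2 RNAi alone raised it to 72.4, 69.9 and 74.2 CPM (log2 fold change 3.33 ± 0.098, adjusted p = 5.87e-22). All 3 RNAi groups of N2 were thus above the control without overlap.

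clec-67 (IV:3922165-3925039, WBGene00018971), an infection-response gene known to need ELT-2, rose from 6.48, 7.28 and 7.27 CPM to 25.9, 24.97 and 26.3 CPM with cco-1 RNAi (log2 fold change 1.74 ± 0.10, adjusted p = 4.73e-14). It fell to 2.19, 1.42 and 1.42 CPM with elt-2 RNAi and stayed at 2.37, 1.85 and 2.11 CPM with both, below every control library in each case. clec-10 went the same 3 ways, from 11.9, 12.04 and 11.9 CPM on control to 33.3, 33.4 and 28.4 CPM with cco-1 RNAi and to 0.125, 0.0808 and 0.0496 CPM with both. clec-160 also followed this order, with means of 11.6 CPM on control, 24.4 CPM with cco-1 RNAi and 0.119 CPM with both. These last genes were thus left with a few reads in each library with both RNAi.

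clec-265 on the X chromosome (X:3031783-3033117) was at 28.4, 26.5 and 27.9 CPM on control and at 97.2, 87.3 and 85.9 CPM with cco-1 RNAi (log2 fold change 1.67 ± 0.076, adjusted p = 1.71e-16). Both RNAi left it between these levels, at 54.8, 49.9 and 52.3 CPM. clec-72 (IV:3944816-3947362) was at 2.22, 2.03 and 1.45 CPM on control and 7.73, 7.45 and 6.74 CPM with cco-1 RNAi (log2 fold change 1.53 ± 0.086, adjusted p = 2.04e-14), and at 36.5, 38.4 and 40.2 CPM with elt-2 RNAi. The most abundant member, clec-63, was also among the 28, at 1341, 1318 and 1326 CPM on control and 1640, 1760 and 1787 CPM with cco-1 RNAi (log2 fold change 0.38 ± 0.05, adjusted p = 5.86e-07).

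**Figure D1:**
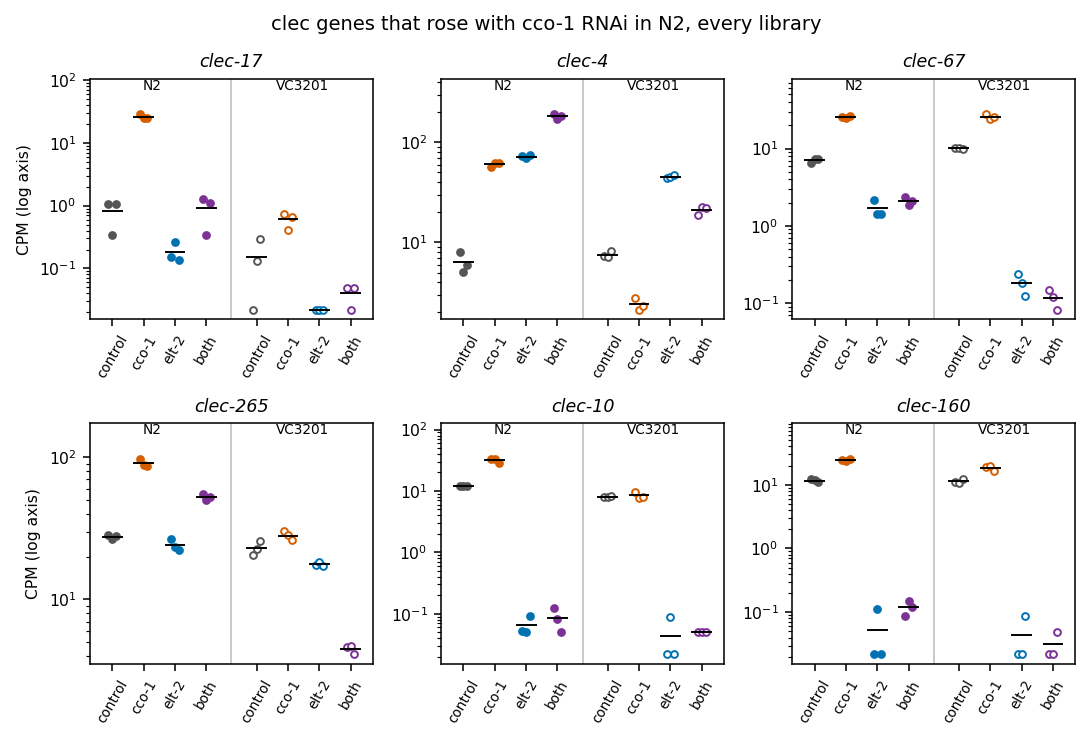
CPM on a log axis of 6 clec genes that rose with cco-1 RNAi in N2, in each of the 24 libraries (points, filled for N2 and open for VC3201) with the mean of each group (line); points at 0.022 CPM are libraries with 0 reads. clec-17 reached 24.7 to 28.4 CPM in N2 with cco-1 RNAi and stayed under 1 CPM in each VC3201 library, whereas clec-67 reached similar levels with cco-1 RNAi in both strains.

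The authors' deposited list of genes up-regulated with cco-1 RNAi holds 25 clec members, which is 1.39% of that list and 22.5% of the members. Their ELT-2-dependent list held 8 of these: clec-10, clec-17, clec-43, clec-67, clec-70, clec-125, clec-160 and clec-265. Their ATFS-1-dependent list held 10: clec-4, clec-10, clec-17, clec-43, clec-66, clec-67, clec-125, clec-142, clec-160 and clec-265. Members made up 1.55% of the ELT-2-dependent list and 1.39% of the ATFS-1-dependent list, beside 1.39% of the up-regulated list. The clec share of each dependent list was thus near that of the up-regulated list, and the difference was not tested. These lists were chosen by the authors on the same libraries and are no independent evidence.

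Among the lowered genes, clec-190 went from 16.7, 15.4 and 16.1 CPM on control to 2.42, 0.716 and 0.962 CPM with cco-1 RNAi in N2 (log2 fold change -2.92 ± 0.16, adjusted p = 5.44e-15). Its exons overlap those of 2 piRNA genes in the annotation. clec-186 was at 102, 89.6 and 99.1 CPM and then at 32.3, 37.6 and 31.98 CPM (log2 fold change -1.49 ± 0.13, adjusted p = 1.23e-10). The means of clec-48 went from 80.1 to 34.1 CPM, those of clec-49 from 25.5 to 9.89 CPM, those of clec-54 from 7.21 to 2.36 CPM and those of clec-218 from 19.3 to 6.38 CPM. No control library of these genes overlapped a cco-1 RNAi library.

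In VC3201, cco-1 RNAi raised 37 members and lowered 45, or 73.9% against a background of 64% of all genes, of which 26.9% were raised and 37.1% lowered. At least 2-fold, 8 were raised and 19 lowered, against 5.02% and 3.22% of all genes. The balance of directions turned when the quantile normalization was partly undone, to 45 raised and 39 lowered. Calls in both strains and in the same direction were made for 19 raised and 29 lowered members, 17.1% and 26.1% of them, against 11.5% and 11.1% of all genes. Opposite calls were made for 5 members, or 4.5%, against 2.92% of all genes. clec-4, clec-66, clec-87 and clec-88 were raised in N2 and lowered in VC3201, and clec-5 was lowered in N2 and raised in VC3201. In that order, clec-4 to clec-88 had log2 fold changes of 3.09, 1.03, 0.18 and 0.14 in N2. Those in VC3201 were -1.32, -0.48, -0.37 and -0.31, so the changes of clec-87 and clec-88 were small. The test of the difference between the strains itself passed for 51 members, 27 with a more positive and 24 with a more negative change in VC3201, or 45.9% against 40% of all genes, of which 16.8% were more positive and 23.2% more negative. At least 2-fold, it was 4 and 10 members, against 3.49% and 1.28%. In VC3201 all 10 oocyte and eggshell markers were lowered by cco-1 RNAi, their sum going from 12280 to 13480 CPM to 8679 to 9157 CPM, whereas 2 of 10 were called lower in N2. All 6 yolk protein genes were lowered, from 69400 to 69790 CPM summed to 33910 to 34180 CPM. Raised in the same libraries were 11 of 15 intestine markers, with a sum going from 6637 to 7656 CPM to 11660 to 11780 CPM. Also raised were 11 of 15 hypodermis and cuticle, 10 of 13 sperm, 7 of 8 neuron, 7 of 7 body wall muscle and 4 of 4 pharynx markers. Lowered were 3 intestine and 2 hypodermis and cuticle markers. The part of these markers in the clec results was not tested.

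The largest strain difference was that of clec-4. In VC3201 it was at 7.24, 7.12 and 8.18 CPM on control and at 2.77, 2.13 and 2.33 CPM with cco-1 RNAi, a fall (log2 fold change -1.32 ± 0.098, adjusted p = 2.67e-12) where N2 had a rise. The difference between the 2 responses was -4.41 ± 0.14 on the log2 scale (adjusted p = 2.00e-19). clec-17 was at 0.022, 0.130 and 0.299 CPM on control and at 0.732, 0.408 and 0.666 CPM with cco-1 RNAi in VC3201, values of 0 to 13 reads, and its response there, which the low counts compress on the log2(CPM + 1) scale, was smaller by 3.43 (adjusted p = 1.31e-12). Neither gene came near its level in N2 with cco-1 RNAi.

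clec-265, at 20.4, 22.7 and 25.7 CPM on control and 30.1, 28.1 and 26.2 CPM with cco-1 RNAi in VC3201, changed there by 0.29 on the log2 scale and had a strain difference of -1.38 ± 0.11, adjusted p = 3.52e-11. clec-10 did not pass in VC3201 (log2 fold change 0.05 ± 0.097, adjusted p = 0.689), with 8.10 and 8.44 CPM, and its strain difference was -1.29 ± 0.14, adjusted p = 1.59e-08. clec-66 went from 14.1, 14.5 and 15.8 to 32.6, 30.6 and 30.8 CPM in N2 and from 21.9, 22.5 and 20.97 to 15.8, 15.4 and 14.8 CPM in VC3201, so the strains moved in opposite directions without overlap. By contrast clec-67 still rose in VC3201, from 10.1, 10.2 and 9.996 to 27.6, 23.998 and 25.8 CPM (log2 fold change 1.27 ± 0.10, adjusted p = 1.35e-11), although its strain difference also passed (-0.47 ± 0.14, adjusted p = 0.0108). clec-72 rose in both strains with no called difference between them (-0.15 ± 0.12, adjusted p = 0.357).

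For other members the larger change was in VC3201. The neighbours clec-222 and clec-223 on chromosome V were at 15.96, 14.8 and 15.99 CPM and 25.8, 24.6 and 27.1 CPM on control. With cco-1 RNAi they were at 3.46, 2.47 and 2.95 CPM and 5.63, 6.82 and 5.73 CPM, below every control library. In N2 the means of clec-222 were 11.9 and 12.2 CPM (log2 fold change 0.03 ± 0.097, adjusted p = 0.868), and the strain differences were -2.10 ± 0.14, adjusted p = 9.04e-13 for clec-222 and -1.65 ± 0.11, adjusted p = 2.51e-12 for clec-223. clec-5 showed the opposite, rising from 14.9, 12.2 and 13.4 to 36.5, 36.02 and 32.6 CPM in VC3201 while falling from 16.1, 14.9 and 14.5 to 10.5, 9.34 and 9.46 CPM in N2, with a strain difference of 1.90 ± 0.11, adjusted p = 3.16e-14. clec-47 went from 5.04, 8.02 and 7.96 to 1.49, 1.42 and 1.16 CPM in VC3201, did not pass in N2 (log2 fold change 0.09 ± 0.13, adjusted p = 0.655), and had a strain difference of -1.83 ± 0.19, adjusted p = 8.60e-09. clec-190 fell in both strains. In VC3201 it went from 10.8, 8.92 and 8.35 CPM to 0 reads in all 3 cco-1 RNAi libraries, at least 45.6-fold lower when 3 reads per library are taken as the floor.

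**Figure D2:**
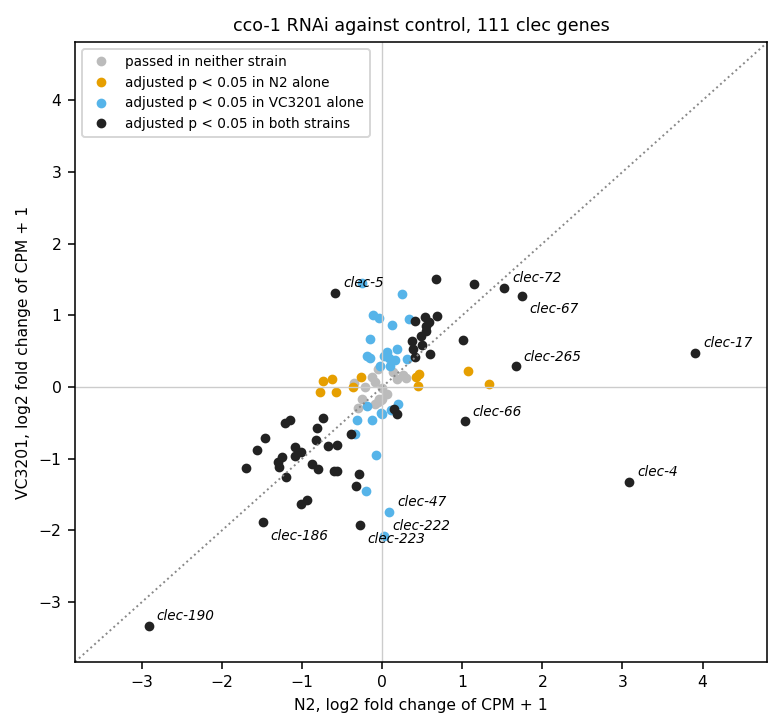
Log2 fold change of CPM + 1 with cco-1 RNAi against control in N2 (x axis) and in VC3201 (y axis) for the 111 clec genes, one point each, coloured by the strain in which the adjusted p was under 0.05; the dotted line marks equal changes. clec-4 lies at 3.09 in N2 and -1.32 in VC3201 and clec-17 at 3.91 and 0.48, off the dotted line, while clec-190 lies at -2.92 and -3.33, close to it.

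The elt-2 RNAi left part of the elt-2 transcript in place, at a mean of 10.5 CPM against 17.3 CPM on control in N2. There it raised 34 members and lowered 48, or 73.9% against a background of 48% of all genes, of which 26.2% were raised and 21.8% lowered. Of the members, 35 were lowered at least 2-fold and 13 raised at least 2-fold, against 4.57% and 3.62% of all genes. The lowered genes held several known from infection studies, clec-41, clec-50, clec-52, clec-67 and clec-85 among them, and the raised ones held others, clec-4, clec-60, clec-61 and clec-65. Of 15 tested intestine markers 9 were lowered and 4 raised, with summed levels of 6280 to 6324 CPM on control and 5237 to 5397 CPM with elt-2 RNAi. The yolk protein genes were lowered for 5 of 6, to a sum of 25750 to 26980 CPM from 73580 to 73850 CPM. Of the other lists, 11 of 13 sperm and 7 of 8 neuron markers were raised. Lowered were 7 of 15 hypodermis and cuticle and 4 of 7 body wall muscle markers, with 1 marker raised in each of these lists. The part of these markers in the clec results was not tested.

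clec-50 (V:19752399-19755368, WBGene00012253) had 278, 288 and 282 CPM on control and 22.04, 18.6 and 21.7 CPM with elt-2 RNAi in N2 (log2 fold change -3.71 ± 0.066, adjusted p = 5.80e-27). clec-150 showed a similar size of change, from 162, 165.7 and 162 to 14.6, 11.4 and 11.8 CPM (log2 fold change -3.60 ± 0.076, adjusted p = 2.43e-25). clec-186 went from the 102, 89.6 and 99.1 CPM given above to 6.62, 5.15 and 5.41 CPM (log2 fold change -3.87 ± 0.13, adjusted p = 5.85e-21). These 3 genes were among the more abundant members on control and kept a measurable level with elt-2 RNAi.

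Others were left at the edge of detection. clec-52 went from 17.05, 20.3 and 20.9 to 0.239, 0.151 and 0.136 CPM (log2 fold change -4.12 ± 0.096, adjusted p = 2.71e-24). clec-10 was left at 0.0532, 0.0496 and 0.0918 CPM and clec-160 at 0.022, 0.114 and 0.022 CPM, from the control means of 11.9 and 11.6 CPM. The libraries of the 3 genes stood clear of their controls. clec-7 went from 4.03, 5.46 and 4.54 to 0.0532, 0.0496 and 0.022 CPM (log2 fold change -2.44 ± 0.13, adjusted p = 5.64e-16). clec-85, a readout of the p38 MAP kinase pathway PMK-1, fell from 23.2, 22.2 and 22.9 to 0.982, 2.18 and 2.16 CPM (log2 fold change -3.13 ± 0.13, adjusted p = 9.44e-19), and an exon of it overlaps the gene Y54G2A.40. clec-41 fell from 77.3, 75.9 and 68.2 to 16.7, 13.3 and 13.9 CPM (log2 fold change -2.26 ± 0.091, adjusted p = 1.02e-18).

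On the raised side, clec-72 reached 36.5, 38.4 and 40.2 CPM, a 20.2-fold higher mean than on control (log2 fold change 3.77 ± 0.086, adjusted p = 1.43e-24). clec-233 (V:16233924-16234898) went from 0.740, 0.878 and 0.558 to 20.1, 19.8 and 21.5 CPM (log2 fold change 3.64 ± 0.11, adjusted p = 1.96e-21). clec-62 went from 26.9, 26.3 and 24.5 to 134, 131 and 140 CPM (log2 fold change 2.34 ± 0.052, adjusted p = 6.83e-25). All elt-2 RNAi libraries lay above all control libraries for these 3 genes. clec-61 rose from 0.151, 0.419 and 0.336 to 6.38, 5.19 and 6.33 CPM and clec-65 from 48.8, 50.1 and 50.7 to 156, 162 and 159 CPM. clec-60, induced by Gram-positive bacteria in infection studies, rose from 2.76, 1.94 and 2.32 to 4.86, 4.86 and 4.87 CPM (log2 fold change 0.82 ± 0.14, adjusted p = 2.41e-05), and an exon of it overlaps another annotated gene on the same strand.

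**Figure D3:**
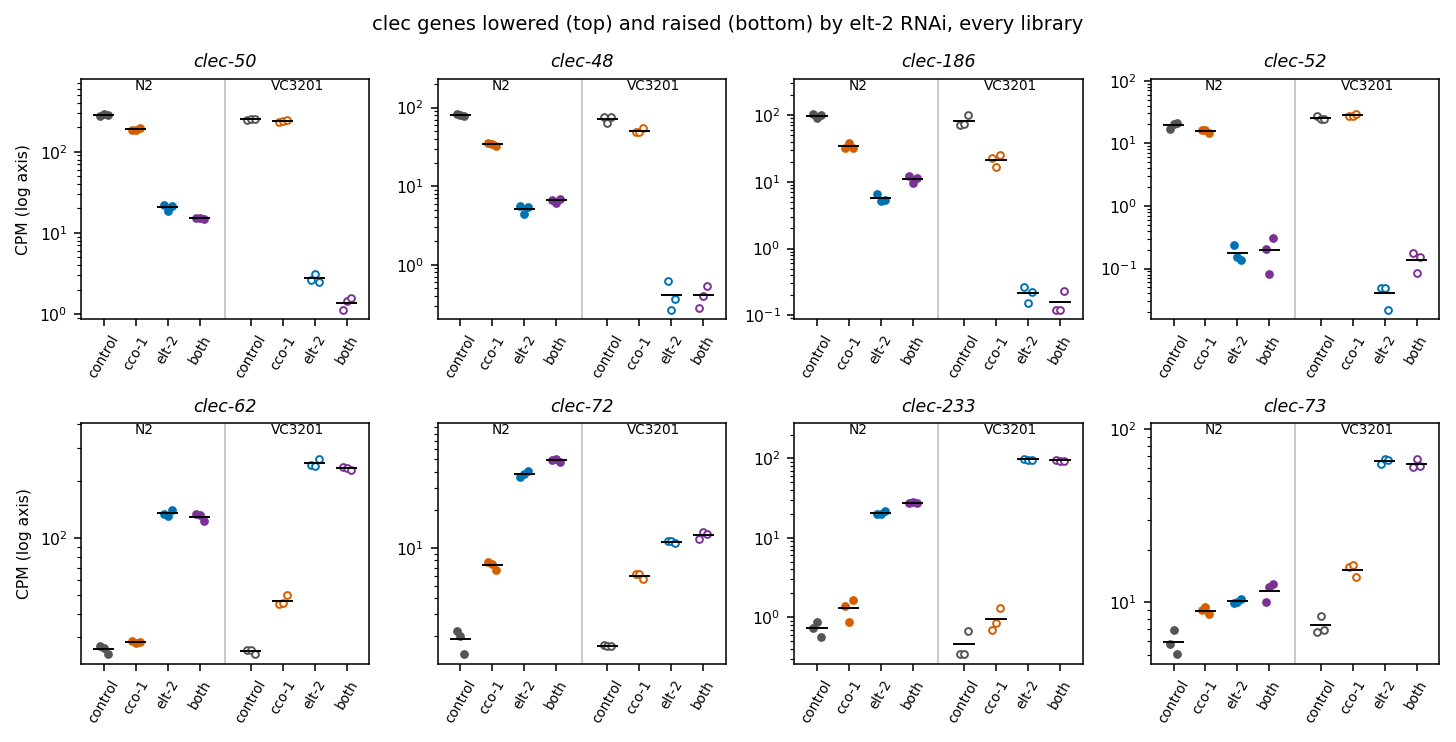
CPM on a log axis of 4 clec genes lowered (top) and 4 raised (bottom) by elt-2 RNAi, in each of the 24 libraries (points, filled for N2 and open for VC3201) with the mean of each group (line). With elt-2 RNAi, clec-50 fell from 278 to 288 CPM on control to 18.6 to 22.04 CPM in N2. In VC3201 it fell from a control mean of 252.9 CPM to 2.48 to 3.13 CPM. clec-233 rose from under 1 CPM to 19.8 to 21.5 CPM in N2 and to 96.7 to 99.1 CPM in VC3201.

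In VC3201, elt-2 RNAi lowered 61 members and raised 39, or 90.1% against a background of 85.8% of all genes, of which 49.4% were lowered and 36.4% raised. By the stricter count, 44 members were lowered and 25 raised at least 2-fold, against 16.2% and 19.1% of all genes. Over members the median log2 fold change was -0.50, and over all genes -0.18. Rescaling by the median of ratios moved the latter by 0.18, to -0.003, and the calls were then 59 members lowered and 40 raised. The number of members with a mean under 1 CPM was 26 on control and 52 with elt-2 RNAi. At 0 reads in all 3 libraries of elt-2 RNAi were 3 members. The shares over all genes were not counted, so neither number is set against a background. The yolk protein genes, which are made by the adult intestine, fell in these libraries from 69400 to 69790 CPM summed to 387.6 to 481 CPM, with all 6 called lower.

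Several of the genes lowered in N2 fell further in VC3201. clec-50 was at 249, 256 and 254 CPM on control and 2.63, 3.13 and 2.48 CPM with elt-2 RNAi, and the strain difference was -2.38 ± 0.094, adjusted p = 2.95e-18. clec-186 went from 70.3, 74.6 and 99.5 to 0.268, 0.152 and 0.224 CPM, with a strain difference of -2.20 ± 0.18, adjusted p = 1.04e-11. clec-150 went from 164, 171 and 179 to 1.88, 1.70 and 1.35 CPM, with a strain difference of -2.43 ± 0.11, adjusted p = 3.71e-17. The third elt-2 RNAi library, whose elt-2 transcript was the highest of the group, was as low as the other two for these genes. clec-48 and clec-41 also had called strain differences, of -1.98 and -2.12, at means of 0.417 and 1.58 CPM with elt-2 RNAi. clec-7 had 0 reads in all 3 libraries, at least 38.3-fold below the control. clec-57 was left at 0.195, 0.306 and 0.136 CPM in N2 and 0.211, 0.0496 and 0.0881 CPM in VC3201, a few reads in each library, so a further fall in VC3201 was not detectable at this depth.

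Of all members, 45 were lowered and 26 raised in both strains by elt-2 RNAi, or 40.5% and 23.4%, against 17.8% and 20.2% of all genes. Opposite calls were made for 5 members, or 4.5%, against 5.6% of all genes. clec-66, clec-87, clec-88 and clec-145 were raised in N2 and lowered in VC3201, and clec-187 was lowered in N2 and raised in VC3201. clec-66 was at 45.1, 46.4 and 47.4 CPM in N2 and 11.2, 10.4 and 11.4 CPM in VC3201 with elt-2 RNAi, with a strain difference of -2.50 ± 0.087, adjusted p = 1.79e-19. clec-266, whose exons overlap kqt-1, was at 53.1, 52.7 and 56.9 CPM with elt-2 RNAi in N2 (log2 fold change -0.17 ± 0.096, adjusted p = 0.152) and went from 17.3, 16.1 and 18.6 to 1.29, 1.37 and 1.67 CPM in VC3201 (log2 fold change -2.91 ± 0.096, adjusted p = 2.55e-21). The strain difference passed for 76 members, or 68.5%, which was below the background of 72.8% of all genes, of which 30.7% were more positive and 42.1% more negative in VC3201. The members comprised 31 with a more positive and 45 with a more negative change, 15 and 29 of them at least 2-fold, against 13.6% and 10.2% of all genes.

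A set of members rose in VC3201 with elt-2 RNAi to levels that N2 did not reach. clec-233 went from 0.343, 0.343 and 0.676 to 99.1, 96.8 and 96.7 CPM (log2 fold change 6.09 ± 0.11, adjusted p = 2.57e-27). clec-73 went from 6.76, 8.38 and 6.96 to 63.1, 67.1 and 66.6 CPM (log2 fold change 2.997 ± 0.093, adjusted p = 5.82e-22), and clec-180 from 1.80, 1.94 and 3.22 to 22.95, 26.5 and 24.9 CPM (log2 fold change 2.98 ± 0.19, adjusted p = 8.84e-15). The libraries of these 3 genes did not overlap between control and elt-2 RNAi. The means of clec-123, clec-79 and clec-151 went from 6.10, 4.45 and 3.08 CPM to 47.1, 29.8 and 21.3 CPM, with strain differences of 2.08, 1.87 and 1.81 on the log2 scale. In the same libraries 12 of 13 tested sperm markers were raised, their sum going from 177.5 to 212.5 CPM to 982.7 to 1042 CPM, and 8 of 10 oocyte and eggshell markers were lowered, from 12280 to 13480 CPM to 9347 to 9911 CPM. Among the sperm markers, gsp-3, a sperm phosphatase, went from a mean of 25.2 to 251 CPM, and the part of these markers in the clec results was not tested. Of 15 tested intestine markers 7 were raised and 7 lowered, and their sum went from 6637 to 7656 CPM to 4132 to 4366 CPM. Of the other tissue lists, 12 of 15 hypodermis and cuticle markers, 7 of 8 neuron, 4 of 4 pharynx and 4 of 7 body wall muscle markers were raised. Lowered were 3 hypodermis and cuticle and 2 body wall muscle markers, and 1 oocyte and eggshell marker was raised. The part of these lists was not tested either.

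**Figure D4:**
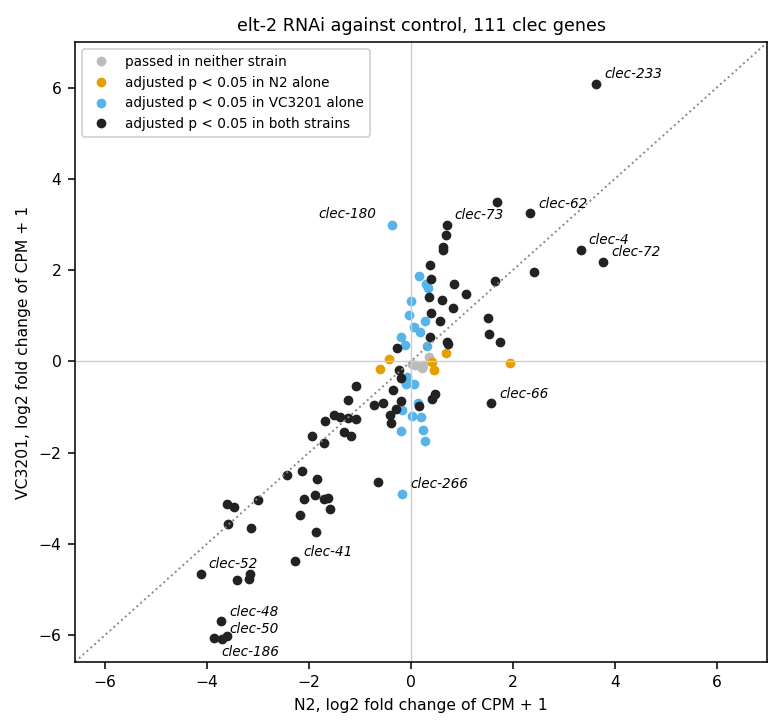
Log2 fold change of CPM + 1 with elt-2 RNAi against control in N2 (x axis) and in VC3201 (y axis) for the 111 clec genes, one point each, coloured by the strain in which the adjusted p was under 0.05; the dotted line marks equal changes. clec-50 lies below the line at -3.71 in N2 and -6.09 in VC3201, and clec-180 lies at -0.36 in N2, where it did not pass, and 2.98 in VC3201.

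The abundant members divided in the same comparison. clec-63 rose, from 942, 959 and 1002 to 2498, 2498 and 2742 CPM (log2 fold change 1.41 ± 0.05, adjusted p = 1.17e-20), and clec-62 from 25.6, 25.8 and 24.5 to 243, 239 and 262 CPM. clec-87 fell from 1241, 1232 and 1207 to 718, 668 and 697 CPM (log2 fold change -0.82 ± 0.056, adjusted p = 5.93e-14), clec-88 from 383, 375 and 390 to 206, 191 and 184 CPM, and clec-91 from 241, 227 and 228 to 129, 109 and 129 CPM. In N2 the same 3 genes had log2 fold changes of 0.42, 0.16 and 0.15, the last of which did not pass (adjusted p = 0.0765). The oocyte and eggshell markers, lowered in VC3201 as given above, were raised for 6 of 10 genes in N2, and their part was not tested. Exons of clec-87, clec-88 and clec-91 overlap other genes, and the files do not say whether counting used the strand.

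The combined RNAi gives clec levels under cco-1 RNAi when elt-2 was also lowered in part. The groups compared differed in the cco-1 transcript too, at means of 127.6 CPM with cco-1 RNAi and 72.9 CPM with both in N2. The part of that difference in the clec results was not tested. In N2, against cco-1 RNAi alone, 32 members were higher and 35 lower with both, or 60.4% against 34.1% of all genes, of which 17.6% were higher and 16.5% lower. At least 2-fold, 13 were higher and 26 lower, against 2.69% and 2.84% of all genes. With the quantile normalization partly undone the calls were 34 higher and 31 lower. Of the marker lists, 8 of 15 intestine and 5 of 6 yolk genes were lowered, and 3 intestine and 9 of 13 sperm markers raised. Their part was not tested. This comparison and that of elt-2 RNAi with control share no library. Both called 25 members raised and 33 lowered, 22.5% and 29.7% of them, against 14.5% and 11.9% of all genes. They disagreed in direction for clec-187 alone, or 0.901% against 0.673% of all genes, which was lowered by elt-2 RNAi alone and raised when it was added to cco-1 RNAi. The interaction of the 2 RNAi, the departure of the combination from the sum of the single changes on the log2 scale, passed for 50 members, 34 positive and 16 negative, or 45.0% against 13% of all genes, of which 7.09% were positive and 5.95% negative. It was at least 2-fold for 12 positive and 6 negative members, against 1.3% and 0.701% of all genes.

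The negative interactions named here are of genes that cco-1 RNAi raised. For clec-17 it was -3.26 ± 0.23, adjusted p = 1.28e-11, and for clec-4 -1.77 ± 0.14, adjusted p = 1.15e-10. clec-67, clec-10, clec-72 and clec-160 followed with -1.52, -1.31, -1.18 and -0.92, as named among members that reached 5 CPM in a group. Others below that level, clec-125 and clec-197, had -1.42 and -0.99, and clec-197 was not called for cco-1 RNAi alone (adjusted p = 0.421). For clec-10 and clec-160, elt-2 RNAi alone already left a mean under 0.1 CPM, where a rise in proportion would not show on the log2(CPM + 1) scale. The means of clec-17 were 0.182 CPM with elt-2 RNAi and 0.902 CPM with both, a rise that this scale also compresses. Genes with negative interactions did not end in the same state. clec-4 and clec-72 were at 181 and 49.1 CPM with both RNAi, above each single RNAi, and clec-10 and clec-160 were near 0. For 13 of the 34 positive interactions the sum of the single changes lay below 0 on the log2(CPM + 1) scale. The combination cannot reach such a value, so their direction was fixed by the scale. The share over all genes was not counted. Positive interactions not of that kind included those of genes that each RNAi lowered, clec-186 (2.33 ± 0.18, adjusted p = 6.06e-11), clec-49 (1.55 ± 0.15, adjusted p = 1.21e-08) and clec-48 (1.51 ± 0.14, adjusted p = 1.74e-09). For clec-186 the libraries with both RNAi, at 12.2, 9.72 and 11.2 CPM, lay above those with elt-2 RNAi alone and below those with cco-1 RNAi alone. clec-60 was higher with both RNAi, at 10.7, 8.31 and 8.62 CPM, than with cco-1 RNAi (1.39, 2.14 and 1.87 CPM) or elt-2 RNAi alone, with an interaction of 1.05 ± 0.20, adjusted p = 4.51e-04.

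In VC3201 the addition of elt-2 RNAi to worms on cco-1 RNAi raised 36 members and lowered 58, or 84.7% against 81.1% of all genes, of which 36.5% were higher and 44.6% lower. At least 2-fold, 17 were higher and 37 lower, against 14.6% and 11.8% of all genes. Of the marker lists, 12 of 13 sperm and 10 of 15 hypodermis and cuticle markers were raised. Lowered were 9 of 10 oocyte and eggshell, 8 of 15 intestine and 6 of 6 yolk genes. Against these, 5 intestine markers were raised and 3 hypodermis and cuticle markers lowered. The part of these lists was not tested. The interaction passed for 72 members, 36 in each direction, or 64.9% against 41.1% of all genes, of which 21% were positive and 20.1% negative, and it was at least 2-fold for 16 positive and 10 negative members, against 2.58% and 4.26%. For 25 of the 36 positive ones the sum of the single changes lay below 0 on that scale, which fixed their direction. Here too the share over all genes was not counted. clec-265 had a negative interaction (-2.05 ± 0.11, adjusted p = 7.34e-15): its libraries with both RNAi were at 4.64, 4.69 and 4.14 CPM, below those of every other group. clec-190 is one of these 25, with means of 0.022 CPM with cco-1 RNAi, 0.269 CPM with elt-2 RNAi and 0.0606 CPM with both, so that its interaction says nothing of the combination. clec-4 was at 43.6, 45.2 and 46.97 CPM with elt-2 RNAi and at 18.9, 22.6 and 22.1 CPM with both in VC3201, and its interaction did not pass (0.26 ± 0.14, adjusted p = 0.137). Across both strains, 30 members were lower and 17 higher in all 4 comparisons that added elt-2 RNAi, or 27% and 15.3%, against 9.86% and 12.6% of all genes, the first set including clec-41, clec-48, clec-50, clec-52, clec-67 and clec-85 and the second clec-4, clec-61, clec-62, clec-63, clec-65, clec-72 and clec-233.

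On control bacteria 28 members were higher and 30 lower in VC3201 than in N2, or 52.3% against 49.3% of all genes, of which 26.7% were higher and 22.6% lower, so the share called was near the background. When the quantile normalization was partly undone, 19 members were higher and 36 lower. The 6 members that differed at least 2-fold were all lower in VC3201, where 2.93% of all genes were lower and 0.838% higher by that count. clec-78 was at 10.01, 11.6 and 10.4 CPM in N2 and 1.53, 1.87 and 1.68 CPM in VC3201 (log2 fold change -2.12 ± 0.13, adjusted p = 1.86e-13). clec-266 was at 64.4, 57.9 and 60.98 CPM and 17.3, 16.1 and 18.6 CPM (log2 fold change -1.76 ± 0.096, adjusted p = 1.23e-14), and clec-196 at 8.65, 6.87 and 8.45 CPM and 3.02, 3.14 and 1.78 CPM (log2 fold change -1.32 ± 0.14, adjusted p = 1.78e-08). No library of 1 strain reached the other for these 3 genes. On the higher side, clec-47 was at 3.89, 3.57 and 2.45 CPM in N2 and 5.04, 8.02 and 7.96 CPM in VC3201 (log2 fold change 0.89 ± 0.13, adjusted p = 3.44e-06), and clec-147, whose exons overlap C04H5.1, at 6.17, 5.98 and 6.61 CPM and 12.02, 10.5 and 12.1 CPM. In the hypodermis and cuticle list, 14 of 15 genes were lower in VC3201, with summed levels of 7072 to 7579 CPM in N2 and 5123 to 5685 CPM in VC3201, and their part was not tested.

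The members lay unevenly over the genome. Of the 111, 36 were on chromosome IV, 32 on V, 23 on II, 9 on III, 8 on I and 3 on X. Chromosome IV thus held 32.4% of members and 17.1% of the tested genes. Among protein-coding genes, another member was the next annotated gene for 41 members, which formed 16 runs of 2 to 5 genes. Pseudogenes were skipped, so clec-152, which lies between clec-151 and clec-153, is in no run. The longest run, clec-62 to clec-66, spans II:12893062-12906644, and the runs on chromosome IV between 3932708 and 3975721 held 9 members.

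Neighbours did not always move together. With elt-2 RNAi in N2, 8 of the 16 runs had at least 2 members called in 1 direction and 3 had calls in both. In that comparison 73.9% of members were called, and runs of other genes were not counted. Whether neighbours moved together more often than other genes was therefore not tested. The genes discussed next were chosen after their values were seen. The 4 genes of the run at V:14469231-14479003, clec-57, clec-227, clec-56 and clec-54, all fell in N2, with log2 fold changes of -3.004, -2.10, -2.18 and -1.63, and those of the pair clec-49 and clec-50 were -3.15 and -3.71. In the pair at II:12575691-12581113, clec-8 fell from 5.06, 5.34 and 5.04 to 2.03, 1.91 and 1.82 CPM while clec-4 rose. In the pair at IV:12866109-12871495, clec-186 had a log2 fold change of -3.87 and clec-187, which went from 21.6, 21.8 and 21.5 to 18.2, 16.8 and 18.5 CPM, one of -0.27. Within clec-62 to clec-66 all 5 genes were raised in N2, and in VC3201 the first 4 were raised and clec-66 was lowered. Reads shared between near-identical copies could be split among them by the counting, which was not checked here.

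**Figure D5:**
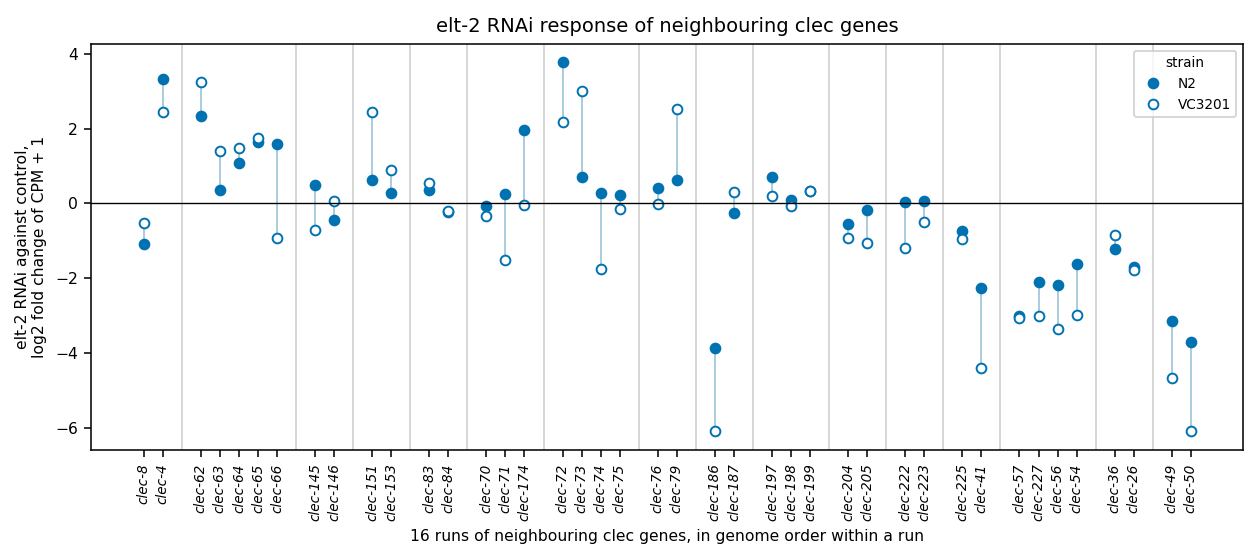
Log2 fold change of CPM + 1 with elt-2 RNAi against control for the 41 clec genes in 16 runs of neighbouring protein-coding genes, in N2 (filled) and VC3201 (open), with vertical lines between runs. The 4 genes from clec-57 to clec-54 lie below 0 in both strains, whereas clec-186 lies at -3.87 and -6.07 beside clec-187 at -0.27 and 0.30.

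Other genes of the immune response were set beside the lectins. Of 40 tested antimicrobial peptide and lysozyme genes, elt-2 RNAi in N2 lowered 18 and raised 12, and cco-1 RNAi lowered 16 and raised 4, with medians of -0.16 in each case against 0.02 and 0.01 over all genes. All genes were called lower and higher at 21.8% and 26.2% for elt-2 RNAi and at 16.4% and 17.5% for cco-1 RNAi. The lysozyme gene lys-7 went from a mean of 105 CPM on control to 4.08 CPM with elt-2 RNAi in N2, and lys-2 rose with cco-1 RNAi, from 49.5 to 172 CPM. Of 12 galectin genes, which encode another lectin family, 11 were raised and 1 lowered by elt-2 RNAi in VC3201, with a median of 1.68, where 36.4% of all genes were raised and 49.4% lowered. For the clec family the same comparison gave 39 raised and 61 lowered. Of 9 tested genes in a list for the p38 MAP kinase pathway, 6 were lower in VC3201 than in N2 on control, against 22.6% of all genes. The list of 10 was wider than that pathway and named kgb-1 and mek-1 too. Its kinase gene pmk-1 went from 37.1 to 15.9 CPM (log2 fold change -1.18 ± 0.06, adjusted p = 2.62e-15). Of 13 transcription factor genes of intestinal immunity, elt-2 RNAi in N2 raised 6 and lowered 3, and of 18 other infection-response genes it raised 8 and lowered 8, beside the 26.2% and 21.8% of all genes. The transcription factor list includes elt-2 itself, the target of the RNAi, which went from a mean of 17.3 to 10.5 CPM.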

How the data were processed

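PolyA-enriched RNA of whole worms was sequenced on a BGISeq500, per the labels' protocols, in 24 libraries, 3 in each of 8 groups. STAR 2.73a, edgeR 3.24.3 and WBcel235 (ce11) are named in the submitters' processing notes, and no source used here names the counter. The authors deposited CPM that had been quantile-normalized over the libraries, which the equal column sums and shared tied values in the table show. The authors also deposited log2 fold changes and adjusted p-values, named Limma-Voom in their key sheet, which were used as an alternative. Column names were matched to titles through the key sheet.

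Genes reaching a group mean of 1 CPM were fitted as log2(CPM + 1) with limma 3.58.1 (R 4.3.3) in 1 model of 8 group means, leaving 16 residual degrees of freedom, with an intensity trend, 2-sided, and with Benjamini-Hochberg adjustment over all 14561 genes in each of 11 comparisons. Reads were ranked back from tied values for 55.0 to 68.8% of genes per library. Positions came from Ensembl release 115, and protein and promoter sequences were not used here. The procedure was tested on simulated data.

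The clec members and the 13 gene lists were chosen with earlier results of these data known. Named genes were the 6 most raised and 6 most lowered clec genes per comparison that reached 5 CPM as the mean of a compared group, the 10 most abundant, and clec genes with published immune roles, of which clec-39 and clec-209 were not analysed here. Replicates in the same group differed by more than counting error (chi-square per gene 1.28 to 1.96 over 24 pairs).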

Additional observations from a re-analysis of the deposited data

Results flagged for a closer look

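The values below are differences between the strains in the response of a clec gene, VC3201 minus N2, on the log2(CPM + 1) scale, each past an adjusted p of 0.05 in limma's test of the difference itself. They are the 6 largest in each direction among members with a group mean of 5 CPM or more in the groups compared. No cause was tested.

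For cco-1 RNAi the more negative responses in VC3201 were those of clec-4 (-4.41), clec-17 (-3.43), clec-222 (-2.10), clec-47 (-1.83), clec-223 (-1.65) and clec-66 (-1.51). The more positive ones were those of clec-5 (1.90), clec-41 (0.83), clec-218 (0.74), clec-62 (0.74), clec-48 (0.71) and clec-166 (0.71). Below that level, clec-60, clec-230, clec-117 and clec-229 had larger positive differences of 1.71, 1.13, 1.05 and 0.996. Of these, clec-230 and clec-229 reached the filter of 1 CPM only with cco-1 RNAi in VC3201, at means of 1.126 and 1.096 CPM. clec-17 reached it only with cco-1 RNAi in N2, at a mean of 25.98 CPM. The differences of these genes thus rest on the group that admitted them.

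For elt-2 RNAi the more negative responses in VC3201 were those of clec-266 (-2.74), clec-66 (-2.50), clec-150 (-2.43), clec-50 (-2.38), clec-186 (-2.20) and clec-41 (-2.12). The more positive ones were those of clec-180 (3.34), clec-233 (2.45), clec-73 (2.30), clec-123 (2.08), clec-79 (1.87) and clec-151 (1.81). clec-66 and clec-41 stood out in both comparisons, which share the control libraries of each strain.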

How the results depend on the processing

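The counts of called clec genes stayed within 1.5 times of those reported with other pseudocounts, no filter and fits of only the groups compared. They did so too with both rescalings and with each library left out. So did the counts from the authors' deposited statistics, which cover the RNAi comparisons within each strain. Those statistics hold no interaction and no comparison of the strains. A minimum of 2-fold left fewer calls by construction. It left 10 raised and 15 lowered for cco-1 RNAi in N2, 13 raised for elt-2 RNAi in N2, 13 raised for both against cco-1 RNAi in N2, and 12 and 6 for the interaction in N2. It left 0 higher and 6 lower between strains, 8 and 19 for cco-1 RNAi in VC3201, 25 raised for elt-2 RNAi in VC3201, 17 and 37 for both against cco-1 RNAi in VC3201, and 16 and 10 for the interaction there. For the strain differences it left 4 and 10 with cco-1 RNAi and 15 and 29 with elt-2 RNAi. A filter at 5 CPM, which tests fewer genes, left 22 raised for the interaction in N2, 24 raised and 40 lowered for elt-2 RNAi in VC3201, 37 lowered for both against cco-1 RNAi in VC3201, 23 raised for the interaction there, and 20 raised for the strain difference with elt-2 RNAi.

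Of the named genes, clec-60 changed sign, for both against cco-1 RNAi in VC3201, from -0.07 (not passed) to 0.285 when the quantile normalization was partly undone, and the cause was not tested. Under that setting 19 other named results lost a call and 21 gained one, and 575 did neither. Leaving out 1 library lost between 1 and 18 calls of named results, 18 without N2 control replicate 3 and 17 without VC3201 control replicate 2. The replicate numbers were not taken as pairs: deviations of same-numbered samples correlated by -0.085 to 0.150 over 48 pairs of libraries, 5 over 0.1, although the same number correlated best in 27 of the 48, a hint from the data and not the design. With the replicate number as a block, the counts moved by at most 1, for example 33 raised and 17 lowered for the interaction in N2, and 3 named results gained a call and 0 lost one. Values under about 1 CPM rest on few reads, 8 to 38 per library at 1 CPM, and the quantile normalization fixes the values of the most abundant genes by rank.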
